A study of Mus musculus with 6 samples.

Results

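Matrix metalloproteinases (MMPs) are zinc-dependent enzymes that cut collagen, elastin, laminin and other proteins of the extracellular matrix, and the tissue inhibitors of metalloproteinases (TIMPs) block them by binding the active site. The set described here holds 10 genes of these families: the stromelysin genes Mmp3 and Mmp10, the collagenase gene Mmp13, the gelatinase genes Mmp2 and Mmp9, the metalloelastase gene Mmp12, the membrane-type gene Mmp14, and Timp1, Timp2 and Timp3. A probe set was a member if the platform annotation gave it exactly 1 gene symbol and that symbol was on this list. All 10 genes were found, with 21 of the array's 22626 probe sets. They are 10 of 12393 genes that could be named in this way, and all 10 were among the 8382 genes tested.

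The samples were 6 lines of mouse embryo fibroblasts, cultured for the same number of passages, with 1 Affymetrix array each. Chromosomally unstable lines were BubR1 H/H (2 lines), in which BubR1, a kinase of the spindle checkpoint, has a hypomorphic allele and CDC20 is wild type, and CDC20 AAA/AAA (1 line), with a CDC20 allele that the labels also call hypomorphic and wild-type BubR1. Chromosomally stable lines were BubR1 +/+ (2 lines) and CDC20 +/+ (1 line), all wild type at both loci. The titles give the numbers 9515, 9938 and 10074 to 1 unstable and 1 stable line each, and lines sharing a number are called a pair. The numbers 9515 and 9938 belong to BubR1 lines and 10074 to CDC20 lines, so the CDC20 allele rests on 1 line. Whether lines came from separate embryos is not given in the labels, and the p-values therefore measure the spread between these lines, which may be technical.

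Array medians lay between 6.16 and 6.20, and all levels below are GCRMA values on the log2 scale, on which a difference of 1 is a 2-fold change. Values under 4 were taken as too dim to measure. All 10 fibroblast markers, among them Col1a1 and Pdgfra, exceeded that floor on every array. The lines also carried 14 of 15 measured macrophage and leukocyte markers above the floor on at least 3 arrays, with Itgam below it on all 6. The log2 of the summed level of this list was 12.54 to 14.97 in unstable lines and 12.98 to 14.89 in stable lines. In such cultures fewer cells of a type and less RNA per cell cannot be told apart.

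Fibroblasts make Mmp2, Mmp14, Timp2 and Timp3 at rest, and MMP14 with TIMP2 forms the cell surface complex that activates pro-MMP2. Mmp3, Mmp10 and Mmp13 are typically quiet in resting fibroblasts and are switched on by cytokines, growth factors and stress, to a large part through AP-1 sites close to their start sites. Timp1 is itself inducible and is grouped with the constitutive genes here because all TIMPs were set against the inducible proteases. Mmp9 and Mmp12 are described on their own, since macrophages make both.

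The median difference between unstable and stable lines was larger among the inducible genes than among the constitutive ones. Among Mmp3, Mmp10 and Mmp13 the median difference, unstable minus stable, was 1.68, with medians of 1.34, 2.16 and 0.48 in pairs 9515, 9938 and 10074. Among Mmp2, Mmp14 and the 3 Timp genes it was -0.03, with pair medians of 0.02, -0.16 and -0.10. The value of -0.03 is that of Timp2, and the proteases and inhibitors of this set did not run alike. Mmp2 and Mmp14 were higher in every pair, with mean differences of 0.29 and 0.37, and Timp1 and Timp3 differed by -0.14 and -0.12. A second probe set of Mmp14 differed by 0.78, more than Mmp3 at 0.56, which was lower in the unstable line of pair 10074. Over all 8382 genes tested the median was -0.01. These medians describe genes chosen with earlier results of these data known and carry no test.

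By gene, 6 of the 10 measured higher in the unstable line of every pair, namely Mmp2, Mmp9, Mmp10, Mmp12, Mmp13 and Mmp14, against 16.9% of all genes tested. Timp3 alone of the 10 measured lower in every pair, against 19.3% of all genes. Mmp13 was the only member whose unstable lines all lay above all stable lines, against 3.54% of genes. No member passed the limma test of the 3 unstable against the 3 stable lines at an adjusted p under 0.05, and 0% of all genes did. At an unadjusted p under 0.05 there were 2 members, Mmp10 and Mmp13, against 4.28% of genes. When the pair was added as a block there were 4, Mmp10, Mmp12, Mmp13 and Mmp14, against 12.2% of genes, and again 0 members and 0% of genes passed after adjustment.

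**Figure D1:**
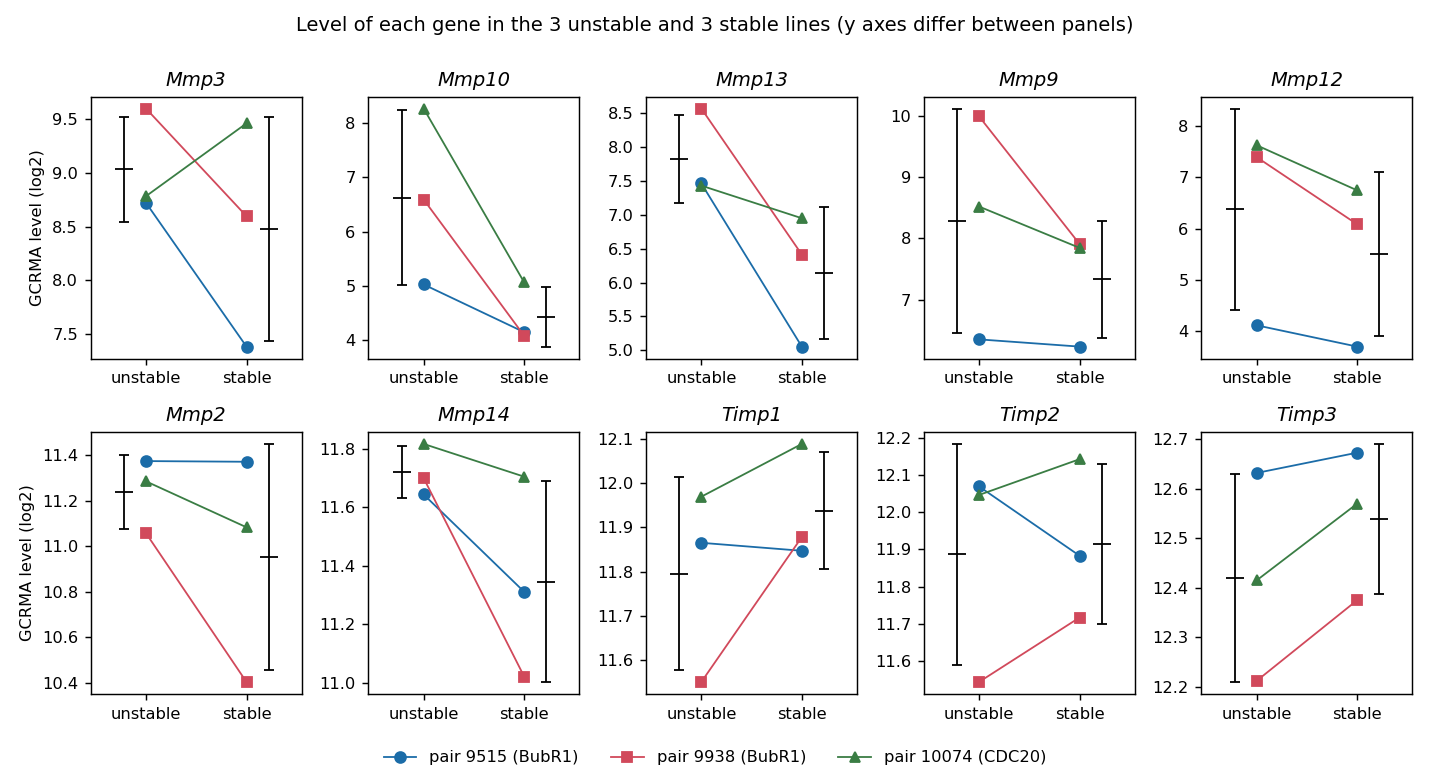
Level of each of the 10 genes on the log2 scale (vertical axes differ between panels) in the unstable (left) and stable (right) lines, with lines joining same-numbered pairs; black bars are the group mean ± SD (n = 3 each). Mmp13 shows no overlap between the groups, Mmp3 crosses over in pair 10074, and the 3 Timp panels span less than 0.6 in all.

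Mmp13, a collagenase that cuts fibrillar collagen, measured 7.46, 8.57 and 7.43 in unstable lines 9515, 9938 and 10074, against 5.05, 6.41 and 6.95 in the stable lines. All 3 unstable lines lay above the highest stable line, which was that of the CDC20 pair, by at least 0.48. The group means were 7.82 ± 0.65 and 6.14 ± 0.98 (SD, n = 3 each) in unstable and stable lines, a 3.21-fold difference (1.68 on the log2 scale, SE 0.56) that did not pass the limma test (adjusted p = 0.999 and, with the pair block, 0.287). Within pairs the unstable line was 5.32-fold higher in pair 9515, 4.47-fold in pair 9938 and 1.40-fold in pair 10074, so both BubR1 pairs differed more than the CDC20 pair. Only 6 of the 8382 genes had a higher mean difference. Without the stable line of pair 9515 the difference was 1.14.

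Mmp10, or stromelysin 2, is a broad-range protease that also activates procollagenases. Its levels were 5.02, 6.59 and 8.27 in unstable lines 9515, 9938 and 10074, against 4.14, 4.08 and 5.06 in the stable lines. Each unstable line exceeded its own partner, but the unstable line of pair 9515 lay 0.04 below the stable line of pair 10074, so the groups overlapped. The mean was 6.63 ± 1.62 in unstable and 4.43 ± 0.55 in stable lines (SD, n = 3 each), 4.60-fold apart (2.20 on the log2 scale, SE 0.81; limma adjusted p = 0.999, or 0.265 with the pair block). The pair differences were 1.84-fold, 5.72-fold and 9.25-fold in pairs 9515, 9938 and 10074, the reverse of the order seen for Mmp13. This was the gene with the third highest mean difference of all those tested. The stable lines of both BubR1 pairs were just above the floor of 4, so these folds are less certain. The difference was 1.38 once unstable line 10074 was left out.

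Mmp3, or stromelysin 1, acts on proteoglycans, laminin and other MMP precursors. In pairs 9515, 9938 and 10074 its level was 8.72, 9.60 and 8.78 in unstable lines, against 7.38, 8.60 and 9.46 in stable lines. The unstable line was the higher one in both BubR1 pairs, by 2.53-fold and 2.01-fold, and the lower one in the CDC20 pair, at 0.624 of its partner. Group means were 9.04 ± 0.49 in unstable and 8.48 ± 1.05 in stable lines (SD, n = 3 each), differing by 0.56 (SE 0.55; limma adjusted p = 0.999). Leaving out 1 line at a time, it was 0.0055 without stable line 9515, 0.27 without unstable line 9938 and 1.05 without stable line 10074.

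**Figure D2:**
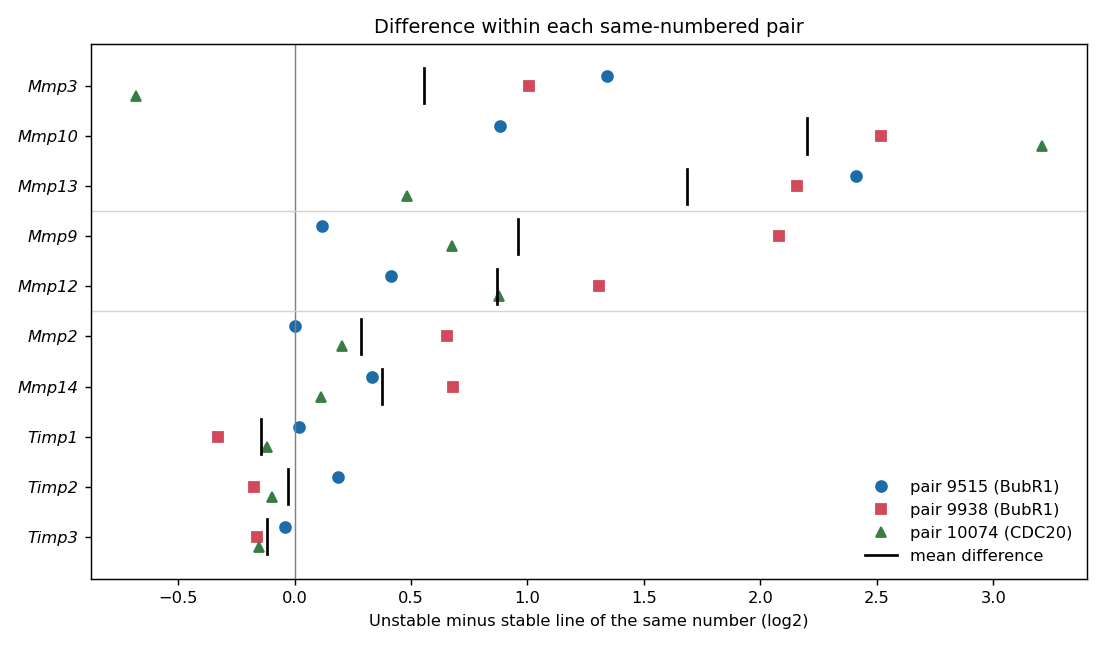
Unstable minus stable difference on the log2 scale for each gene in each same-numbered pair, with a black tick at the mean of the 3 pairs; inducible stromelysin and collagenase genes are at the top, Mmp9 and Mmp12 in the middle and the constitutive set at the bottom. Points of the inducible genes spread from -0.68 to 3.21, those of the constitutive set from -0.33 to 0.68.

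The bases just before the start sites are shown for the 3 inducible genes and for Mmp14, as the constitutive counterpart, because the inducible genes share short elements there that Mmp14 lacks. RefSeq promoters (GRCm38.p6) were matched by symbol for 8 of the 10 members, and Mmp2 and Mmp9 had no entry and were not searched. Each line gives 250 bases up to the annotated start, 5′ to 3′ on the plus strand, which is the strand of all 4 genes. Capitals mark the AP-1 consensus TGACTCA, read on both strands (TGAGTCA on the other), and TATAAA, read on the sense strand. No capital stretch overlaps another.
Mmp3, chr9:7445572-7445821: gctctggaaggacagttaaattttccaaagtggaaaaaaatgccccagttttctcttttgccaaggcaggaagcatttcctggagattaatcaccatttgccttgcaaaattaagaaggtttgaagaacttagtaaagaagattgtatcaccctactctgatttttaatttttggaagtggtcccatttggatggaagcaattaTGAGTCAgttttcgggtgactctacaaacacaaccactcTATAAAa
Mmp10, chr9:7502092-7502341: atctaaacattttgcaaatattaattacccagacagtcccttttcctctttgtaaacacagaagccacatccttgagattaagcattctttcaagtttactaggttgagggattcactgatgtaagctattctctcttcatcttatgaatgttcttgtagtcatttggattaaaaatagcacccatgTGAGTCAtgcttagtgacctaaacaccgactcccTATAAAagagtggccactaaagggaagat
Mmp13, chr9:7272264-7272513: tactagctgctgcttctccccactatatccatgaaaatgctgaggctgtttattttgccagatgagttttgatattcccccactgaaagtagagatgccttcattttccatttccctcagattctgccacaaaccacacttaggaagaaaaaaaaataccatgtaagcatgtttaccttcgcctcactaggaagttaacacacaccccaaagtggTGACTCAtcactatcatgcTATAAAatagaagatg
Mmp14, chr14:54431348-54431597: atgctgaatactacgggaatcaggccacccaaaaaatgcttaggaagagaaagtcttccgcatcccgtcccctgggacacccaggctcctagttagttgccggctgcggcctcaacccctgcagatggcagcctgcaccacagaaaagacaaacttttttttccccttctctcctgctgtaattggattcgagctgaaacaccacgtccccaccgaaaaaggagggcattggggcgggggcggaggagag
The AP-1 letters stood 46 to 40 bases before the start in Mmp3, 63 to 57 in Mmp10 and 35 to 29 in Mmp13, each followed by a TATAAA. The same AP-1 letters occur in 4.46% of the 32851 promoter windows of this length and TATAAA in 7.59%. Of the other matched members, Mmp12 had the AP-1 letters before its second listed start only, and Timp1, Timp2 and Timp3 had neither element in the window. The Ets-type letters AGGAAG, searched on both strands and not capitalised, were in the windows of Mmp3, Mmp13, Mmp14, Timp1 and Timp3 and of the first listed start of Mmp12, against 29.5% of all windows. GC content was 37.6%, 37.2% and 40.4% in Mmp3, Mmp10 and Mmp13, and 55.2% in Mmp14. A match of letters is a description of the sequence and not of binding, and these arrays measured neither factor binding nor chromatin.

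The BubR1 comparison alone, 2 H/H lines against 2 +/+ lines, put 7 of the 10 genes higher in both pairs, against 27.7% of all genes, and 4 of the 10, namely Mmp3, Mmp10, Mmp13 and Mmp14, with both H/H lines above both +/+ lines, against 14.5% of all genes. Mmp13 differed by 2.29 (SE 0.66), Mmp10 by 1.70 (SE 0.59), Mmp3 by 1.17 (SE 0.56) and Mmp14 by 0.51 (SE 0.14) in the limma model with 4 groups. Leaving out 1 BubR1 line at a time gave 1.60 to 2.97 for Mmp13. It gave 0.91 (without unstable line 9938) to 2.48 for Mmp10 and 0.56 (without stable line 9515) to 1.78 (without stable line 9938) for Mmp3. No member passed (limma adjusted p = 1 for each, and at least 0.219 with the pair block), nor did any of the genes tested (0%). At an unadjusted p under 0.05 there were 3 members, Mmp10, Mmp13 and Mmp14, against 3.15% of genes, and with the pair block 5, Mmp3, Mmp10, Mmp12, Mmp13 and Mmp14, against 8.58%.

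Whether the BubR1 and CDC20 lines differed in these effects was tested as the BubR1 difference minus the CDC20 difference. It was 1.85 (SE 0.97) for Mmp3 and 1.80 (SE 1.14) for Mmp13, and -1.51 (SE 1.02) for Mmp10. With 1 CDC20 line on each side, the spread comes from the BubR1 lines alone, and the CDC20 lines are assumed to vary like them. Leaving out 1 BubR1 line gave 1.25 to 2.46 for Mmp3, 1.12 (without stable line 9515) to 2.48 for Mmp13, and -2.30 (without unstable line 9938) to -0.73 (without unstable line 9515) for Mmp10. No member reached an unadjusted p under 0.05, which 1.59% of all genes did, and the adjusted p was 0.9995 for all 10 members in limma. With the pair block the smallest adjusted p among members was 0.313, shared by Mmp3 and Mmp13, the 2 members at an unadjusted p under 0.05 there, against 5.68% of genes. After adjustment 0 of all genes passed, with or without the block, and the opposite order of Mmp10 and Mmp13 across pairs is given as a description only.

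Mmp13, Mmp12, Mmp3 and Mmp10 are neighbours on chromosome 9. In the RefSeq gene order 10 Mmp genes follow each other there without another protein-coding gene between them, in the order Mmp13, Mmp12, Mmp1b, Mmp3, Mmp1a, Mmp10, Mmp8, Mmp27, Mmp20 and Mmp7. Of these, 9 had a probe set. All 4 genes of the run that exceeded the floor on at least 3 arrays are members described here. The other 5, Mmp1a, Mmp1b, Mmp8, Mmp20 and Mmp7, stayed between 1.56 and 2.54 on all 6 arrays, which is below the floor. Mmp1b and Mmp1a, the counterparts of interstitial collagenase in the mouse, lie on either side of Mmp3. Just outside the run, the pair differences were -0.28 to 0.01 for Dcun1d5, -0.04 to 0.24 for Tmem123, -0.18 to 0.33 for Birc2 and 0.07 to 0.23 for Birc3, where the last 2 encode inhibitors of apoptosis. Ddi1 and Dync2h1, the next genes on the Mmp13 side, had no probe set with 1 symbol here, so that side rests on Dcun1d5. None of these 4 flanking genes differed by more than 0.33 in either direction in any pair.

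**Figure D3:**
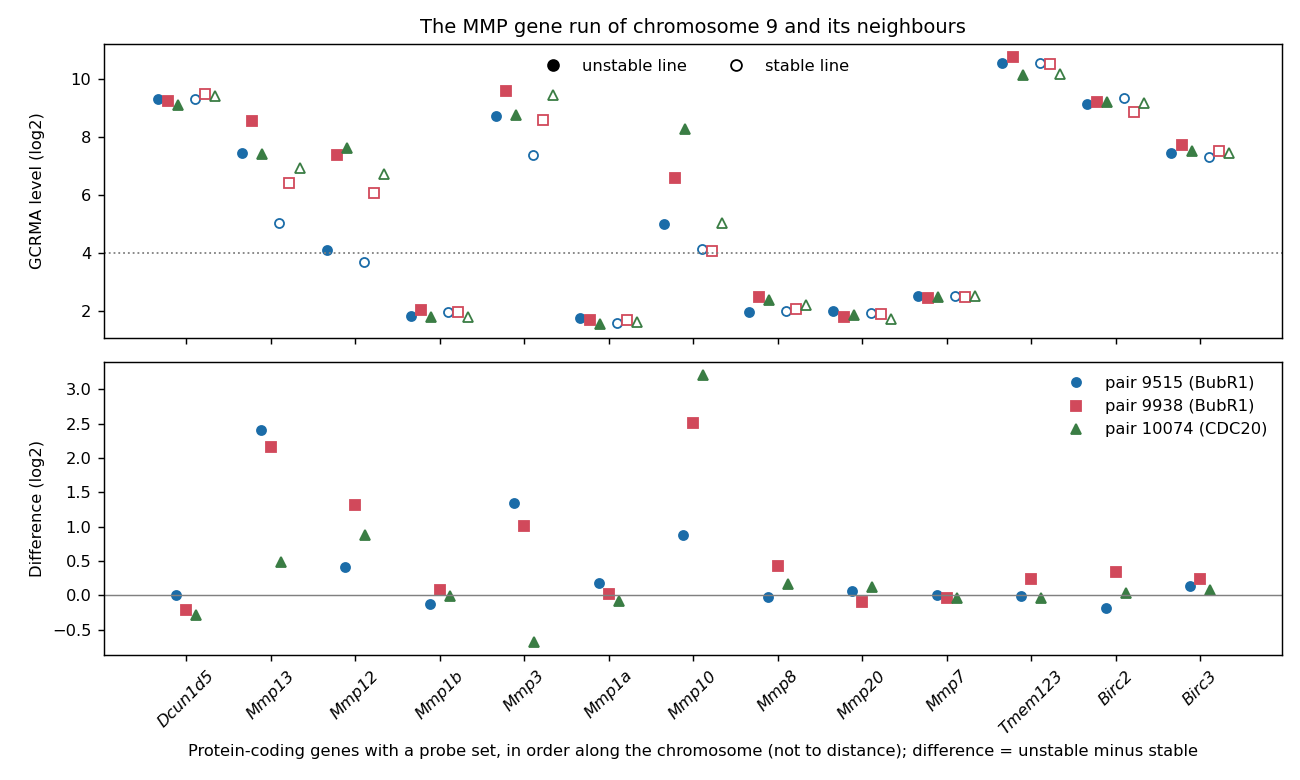
Levels (top, log2; filled symbols unstable, open symbols stable; dotted line at 4) and unstable minus stable pair differences (bottom, log2) of protein-coding genes along the Mmp run of chromosome 9 and its flanks, in gene order and not to distance. Mmp13, Mmp12, Mmp3 and Mmp10 are above the dotted line on nearly all arrays, while Mmp1b, Mmp1a, Mmp8, Mmp20 and Mmp7 lie between 1.56 and 2.54.

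The AP-1 and Ets factor transcripts had a median difference close to that of all genes. Of 12 listed genes 11 were tested. In every pair 1 was higher, against 16.9% of all genes, and 1 lower, against 19.3%. The median difference was 0.01 and 0 passed the test. Fosl1, which encodes the AP-1 subunit FRA1, measured 7.85, 6.84 and 8.21 in unstable lines 9515, 9938 and 10074, against 8.30, 8.77 and 8.32 in the stable lines. It was lower in each unstable line, with differences of -0.45, -1.93 and -0.10 in pairs 9515, 9938 and 10074. In the same order Mmp13 differed by 2.41, 2.16 and 0.48, and Mmp10 by 0.88, 2.52 and 3.21. Whether Fosl1 and these genes are linked was not tested, and the arrays did not measure AP-1 activity. Fos differed by -0.28 (SE 0.16), Fosl2 by -0.15 (SE 0.10) and the Ets-family gene Elk3 by 0.06 (SE 0.08).

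Of 17 listed genes of cytokine and growth factor signalling, 12 were tested, with a median of 0.10 and 0 past the test. The list holds the interleukin 1 antagonist gene Il1rn and the enzyme gene Ptgs2 beside ligands and receptors. In every pair 4 were higher, against 16.9% of all genes, and 1 lower, against 19.3%. Il6, an inflammatory cytokine, measured 6.66, 5.92 and 7.11 in the unstable lines and 5.87, 6.11 and 5.50 in the stable lines of pairs 9515, 9938 and 10074. Its pair differences were 0.80, -0.19 and 1.61, with the unstable line higher in pairs 9515 and 10074 and lower in pair 9938, beside Mmp10 differences of 0.88, 2.52 and 3.21. Whether the 2 are linked was not tested. Fgf7, a fibroblast growth factor, differed by 0.50 (SE 0.26), Hgf by 0.34 (SE 0.22) and Ptgs2, the inducible cyclooxygenase gene, by 0.25 (SE 0.23). Il1b, a classic inducer, stayed below the floor except at 4.14 in the unstable line of pair 9938.

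Mmp9, or gelatinase B, degrades denatured collagen and basement membrane collagen. It measured 6.35, 9.99 and 8.52 in unstable lines 9515, 9938 and 10074, against 6.23, 7.91 and 7.84 in the stable lines. Unstable lines were higher in every pair, but by 1.09-fold in pair 9515 and 4.23-fold in pair 9938, and the range of 3.64 among unstable lines exceeded the mean difference of 0.96 (SE 0.97; limma adjusted p = 0.999). With the pair block, which takes out the differences between pairs, SE was 0.38 and the limma adjusted p was 0.419. A second probe set gave pair differences of 0.05, 1.26 and 0.54 in the same order. Leaving out unstable line 9938 gave a mean difference of 0.11, and leaving out unstable line 9515 gave 1.93.

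Mmp12, the macrophage metalloelastase, measured 4.12, 7.40 and 7.63 in unstable lines 9515, 9938 and 10074, against 3.70, 6.09 and 6.75 in the stable lines. The unstable line was the higher one in every pair, by 1.33-fold, 2.48-fold and 1.84-fold, and both lines of pair 9515 were near or below the floor. Group means were 6.38 ± 1.96 in unstable and 5.51 ± 1.60 in stable lines (SD, n = 3 each), a difference of 0.87 with SE 1.19 (limma adjusted p = 0.999); with the pair block, which takes out the differences between pairs, SE was 0.18 and adjusted p = 0.265. In the fit with no block it was -0.04 once stable line 9515 was left out, 0.36 once unstable line 9938 was and 2.00 once unstable line 9515 was.

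Macrophage markers were measured beside these 2 genes. The summed level of the list was 0.45 lower in the unstable line of pair 9515, 0.11 higher in that of pair 9938 and 0.80 lower in that of pair 10074 on the log2 scale. In pair 10074 all 14 tested markers were lower in the unstable line, with a median of -1.20 against -0.03 for all genes tested. Mmp9 and Mmp12 were 0.67 and 0.88 higher there. In pair 9515 there were 10 lower and 4 higher, with a median of -0.31 against 0.001 for all genes tested, beside 0.12 for Mmp9 and 0.415 for Mmp12. In pair 9938 there were 5 lower and 9 higher, with a median of 0.10 against -0.003 for all genes tested, beside 2.08 for Mmp9 and 1.31 for Mmp12. The share of all genes lower or higher in each pair was not computed, so these marker counts are a description only. Between pairs the levels ran together, in that both lines of pair 9515 had the lowest levels of Mmp9, Mmp12 and the marker list. Whether macrophages had a part in the Mmp9 and Mmp12 values was not tested. Csf1r, the receptor for a macrophage growth factor, measured 7.84, 10.15 and 9.02 in unstable lines 9515, 9938 and 10074 and 8.43, 10.02 and 10.21 in the stable lines.

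**Figure D4:**
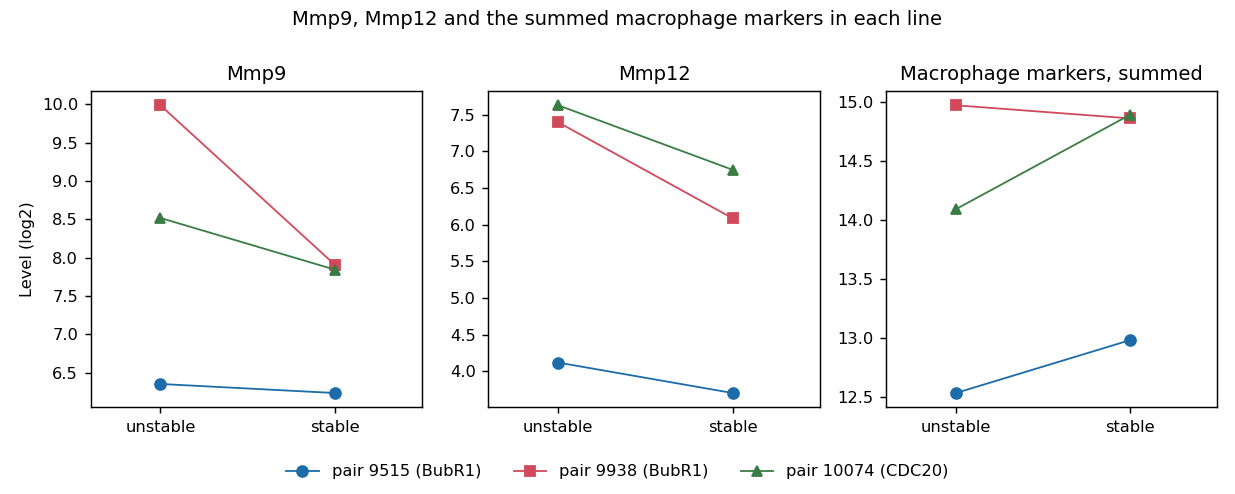
Level on the log2 scale of Mmp9, Mmp12 and the summed macrophage and leukocyte markers in unstable (left) and stable (right) lines, joined by pair. Pair 9515 is lowest in all 3 panels. In pair 10074 the marker sum is 0.80 lower in the unstable line, and Mmp9 and Mmp12 are 0.67 and 0.88 higher. A link between them was not tested.

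Markers of other cell types that make MMPs were measured as well. Of 6 endothelial markers, 1 passed the filter and was tested. Of 4 osteoclast markers only Ctsk, also expressed by fibroblasts, was tested, at 10.40, 10.85 and 11.07 in unstable lines and 10.24, 10.20 and 11.10 in stable lines of pairs 9515, 9938 and 10074, and Calcr and Oscar stayed below the floor on all arrays. Of 6 measured cartilage and bone markers 4 were tested, with Sox9 above the floor on every array and Col2a1 and Acan highest in pair 9515. Their summed level, untested markers included, lay at 8.30 to 9.10 in unstable and 8.54 to 8.87 in stable lines, with pair differences of 0.23, -0.46 and -0.02 in pairs 9515, 9938 and 10074, beside Mmp13 differences of 2.41, 2.16 and 0.48. Sox9 was the brightest of these markers in pairs 9938 and 10074 and differed by -0.469 and -0.003 there, so the sum mostly follows Sox9 in them. Col10a1, a collagen of hypertrophic cartilage, measured 5.86, 4.53 and 4.77 in unstable lines and 5.38, 4.18 and 4.47 in stable lines. Its pair differences of 0.47, 0.36 and 0.30 were all positive and in the same order as those of Mmp13. The other tested markers did not share this pattern. Acan was lower in every pair, at -0.23, -1.02 and -0.49, though below the floor in unstable line 9938 and both lines of pair 10074. Col2a1 and Sox9 were higher in pair 9515 and lower in pair 9938, though Col2a1 was below the floor in unstable line 9938 and both lines of pair 10074. The median difference of the 4 tested markers was -0.11. Whether such cells had a part in the Mmp13 values was not tested.

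Among the constitutive proteases, Mmp14 was higher in every pair by both of its probe sets. Mmp14 encodes a membrane-anchored collagenase. Its brighter probe set measured 11.64, 11.70 and 11.82 in unstable lines 9515, 9938 and 10074, against 11.31, 11.02 and 11.70 in the stable lines. The 3 unstable lines spanned 0.17 and the stable lines 0.68, and the groups overlapped by 0.06 because the stable CDC20 line was high. The means of 11.72 ± 0.09 in unstable and 11.35 ± 0.34 in stable lines (SD, n = 3 each) differed by 0.37 (SE 0.18), or 1.30-fold (limma adjusted p = 0.999, or 0.373 with the pair block). The dimmer probe set gave a larger difference of 0.78 (SE 0.32), with pair values of 0.77, 1.19 and 0.39. Without the stable line of pair 9938 the brighter probe set differed by 0.21.

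Mmp2, or gelatinase A, measured 11.38, 11.06 and 11.29 in unstable lines 9515, 9938 and 10074, against 11.37, 10.40 and 11.08 in the stable lines. The pair differences were 0.003, 0.65 and 0.20, so the groups overlapped and most of the mean difference of 0.29 (SE 0.26; limma adjusted p = 0.999) came from pair 9938. It was 0.01 without the stable line of that pair. The second probe set gave 0.10, 0.34 and 0.21.

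The inhibitors differed little between the groups by their brightest probe sets. Timp1, a soluble inhibitor of most MMPs, measured 11.87, 11.55 and 11.97 in unstable lines 9515, 9938 and 10074, against 11.85, 11.88 and 12.09 in the stable lines, a mean difference of -0.14 (SE 0.14). Timp3, the inhibitor that binds to the matrix, measured 12.63, 12.21 and 12.41 in the unstable lines against 12.67, 12.38 and 12.57 in the stable lines, differing by -0.12 (SE 0.14). The groups overlapped for both genes, and without unstable line 9938 the difference was -0.02 for each. Leaving out any other line gave -0.23 (without unstable line 10074) to -0.07 (without stable line 10074) for Timp1. For Timp3 it gave -0.23 (without unstable line 9515) to -0.05 (without stable line 9515). Of 4 probe sets of Timp3, 3 were lower in every pair, and all pair differences of the gene lay between -0.51 and 0.06.

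Timp2, the inhibitor that takes part in the activation of pro-MMP2, had 6 probe sets that did not give the same direction. The brightest measured 12.07, 11.54 and 12.05 in the unstable lines and 11.88, 11.72 and 12.14 in the stable lines of pairs 9515, 9938 and 10074, with a mean difference of -0.03 (SE 0.19). The dimmest gave pair differences of 0.75, -0.22 and 0.92. With the mean of all its probe sets Timp2 differed by 0.14, so no direction can be given for this gene.

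**Figure D5:**
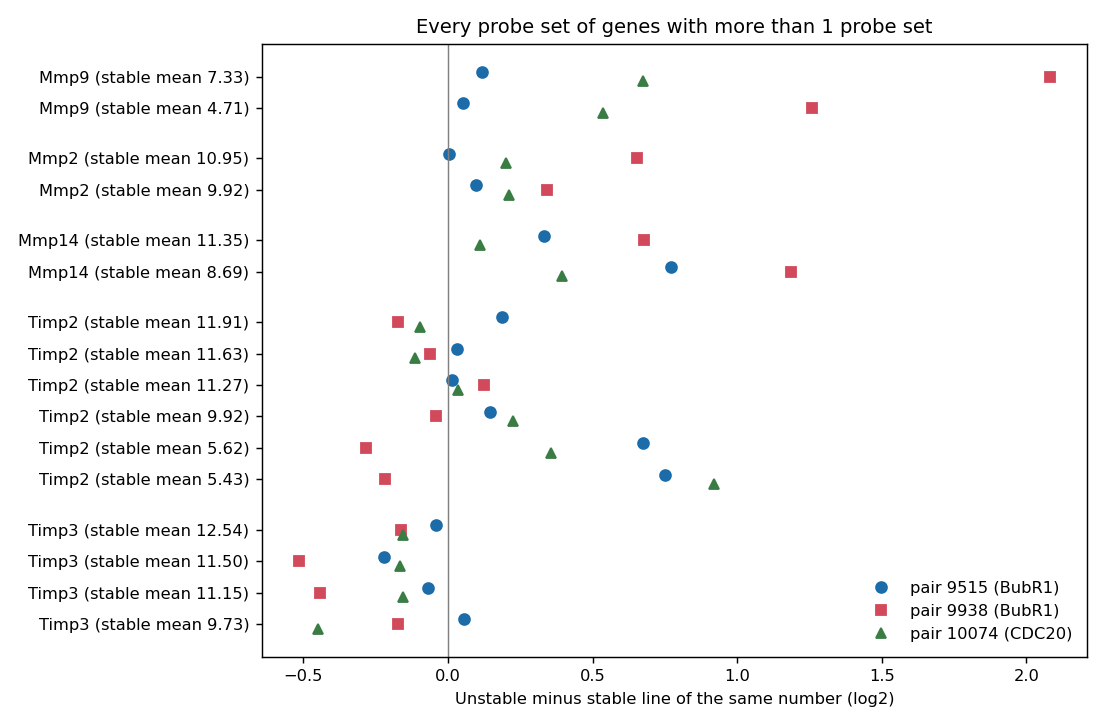
Unstable minus stable pair differences (log2) for every probe set of the 5 genes with more than 1, labelled with the mean level of the stable lines. All points of Mmp9, Mmp2 and Mmp14 lie above 0, those of Timp3 between -0.51 and 0.06, and those of Timp2 from -0.28 to 0.92.

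Over all 21 probe sets of the 10 genes, 10 were higher and 3 lower in every pair. They include 6 of Timp2 and 4 of Timp3, so they are not separate results. The share of all named probe sets with such a pattern was not computed, so these counts are a description only. Tested one by one over all named probe sets, none reached an adjusted p under 0.05.

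Likeness to Mmp10 and Mmp13 was measured as the mean absolute distance between profiles, each centred on its own mean over the 6 arrays and not scaled. Of all tested genes, Gbp3, Usp18, Kcnmb1, Cxcl10 and Pla2g7 lay nearest to Mmp10 over these 6 arrays, at 0.34, 0.47, 0.48, 0.51 and 0.52. Gbp3, Usp18 and Cxcl10 are known as interferon-induced genes, and in pairs 9515, 9938 and 10074 they differed by 1.03, 1.19 and 3.00 (Gbp3), 0.88, 1.24 and 4.64 (Usp18) and 0.73, 1.74 and 2.35 (Cxcl10). Gbp3 was below the floor in all 3 stable lines and Usp18 in those of both BubR1 pairs, so the differences there are uncertain, and Gbp3 passed the filter through the unstable lines. Kcnmb1 was below the floor in both lines of pair 9515. Nearest to Mmp13 were Septin4, Rgcc, Cdh3, Pla2g7 and Aoc3, at 0.38, 0.46, 0.51, 0.53 and 0.54. Their differences in pair 10074 were 0.97, 0.56, 0.22, 1.30 and 0.64. The genes near Mmp10 and Mmp13 were picked on these same values, so their alike pair differences follow from the choice. Whether any of them is linked to Mmp10 or Mmp13 was not tested.

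Of 21 other MMPs and modulators, 16 were measured and 9 tested, with a median of 0.21 and 0 past the test. In every pair 2 were higher, against 16.9% of all genes, and 1 lower, against 19.3%. Mmp17, a membrane-type MMP held by a lipid anchor, measured 6.85, 7.11 and 6.90 in unstable lines 9515, 9938 and 10074 and 7.15, 7.50 and 7.22 in the stable lines. All unstable lines were thus lower than all stable lines, as in 6.41% of all genes (-0.34, SE 0.13; limma adjusted p = 0.999). Reck, a membrane-anchored inhibitor of MMPs, differed by 0.23 (SE 0.19), Mmp19 by 0.22 (SE 0.20) and Mmp23 by 0.48 (SE 0.53).

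Of 16 ADAM and ADAMTS proteases 12 were tested, with a median of -0.09 and 0 past the test. In every pair 0 were higher, against 16.9% of all genes, and 3 lower, against 19.3%. Adam8 differed by -0.61 (SE 0.44), Adam12 by -0.12 (SE 0.10), Adam19 by 0.13 (SE 0.10) and the aggrecanase gene Adamts4 by 0.19 (SE 0.19). Plasmin, made from plasminogen by its activators, can activate MMP precursors. Of 11 genes of the plasminogen and proprotein convertase list 5 were tested, with a median of -0.05 and 0 past the test. In every pair 2 were higher, against 16.9% of all genes, and 3 lower, against 19.3%. Plat, the tissue plasminogen activator gene, measured 10.01, 10.27 and 10.36 in unstable lines and 9.53, 9.76 and 10.06 in stable lines of pairs 9515, 9938 and 10074 (0.43, SE 0.17). Plaur, the receptor for urokinase, differed by -0.31 (SE 0.15), and the convertase genes Pcsk5 and Pcsk6 by 0.99 (SE 0.86) and -0.78 (SE 0.57).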

How the data were processed

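Log2 GCRMA values for 6 arrays, 1 per line, were used as deposited; the authors made them with R 2.15.3 and GCRMA 2.28.0, per the submitters' processing notes. GCRMA corrects background, equalises the distributions of arrays and summarises probe sets, so overall brightness differences are removed, and differences of dim genes are less certain. Scanner files were not used here, and the positions of the probe sets and the build of their annotation are not given in the sources used here. Promoters came from RefSeq on GRCm38.p6.

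Among 22626 probe sets, 20380 had 1 gene symbol in the platform annotation, 691 had several and 1555 were unlisted. Each of 12393 genes was represented by its probe set of highest mean, and genes at 4 or more on at least 3 arrays (8382) were tested without a block by limma's moderated two-sided test (limma 3.58.1, run under R 4.3.3), with Benjamini-Hochberg adjustment over all of them. A model with 4 groups gave the BubR1 comparison and the difference between effects. An exact permutation test of 3 against 3 cannot go below 0.1 and was not used. Same-numbered lines, by their titles, deviated together from the group means (correlations across genes of 0.812, 0.681 and 0.602), so the numbers were taken as pairs and a fit with the pair as a block was run. The fits were also run on simulated data with set differences, where the pass rule was only that their mean was recovered. Rates of calls on those data are not given here.

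Members, lists and tests were chosen with earlier results of these data known. All 10 members are named, and up to 4 genes of each wider list by unadjusted p, with the Mmp run on chromosome 9 and those of its 3 nearest genes on each side that had a probe set. Il1b, Csf1r and the single fibroblast, cartilage and osteoclast markers were named after their values were seen. Likeness used the mean absolute distance of centred profiles, with 5 genes for Mmp10 and for Mmp13. Alternatives were other filters, the mean of probe sets, renormalization, other priors, array weights and leaving out lines or pairs.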

Additional observations from a re-analysis of the deposited data

Results flagged for a closer look

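Mmp3 was higher in the unstable line of both BubR1 pairs (1.34 and 1.00) and lower in that of the CDC20 pair (-0.68); the BubR1 effect minus the CDC20 effect was 1.85 and did not pass the limma test (adjusted p = 0.9995). The same opposite directions occurred in 10.7% of all genes. Mmp23 differed by 0.10, 1.66 and -0.32 in pairs 9515, 9938 and 10074, with a difference between effects of 1.20. Reck differed by 0.26, 0.54 and -0.11, with 0.51 between effects, and Adam19 by 0.19, 0.20 and -0.01, with 0.20. Ptgs2 ran the other way, at -0.01, -0.02 and 0.77, with -0.78 between effects. None of these differences between effects passed the limma test at an adjusted p under 0.05.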

How the results depend on the processing

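Counts of genes past the adjusted threshold were 0 in each of 78 alternative values over the 3 comparisons, the replicate block included, which changed no call. Of 377 alternative differences of the members, 351 kept their sign and 0 passed (smallest adjusted p = 0.219 by limma). The pair block, other filters and other priors leave a member's difference as it was, as do array weights in the model with 4 groups. Signs kept under those settings were fixed in advance, so the 351 is no measure of robustness. Signs of Mmp3, Mmp10, Mmp13 and Mmp14 held in all alternatives run. The median of the inducible genes was 1.14 to 2.09 with lines left out, and 1.12 with the stricter floor, which removed Mmp10. That of the constitutive genes was -0.13 to 0.14 with lines left out and 0.14 with the mean of probe sets. Timp2, unstable minus stable, was 0.14 with the mean of probe sets, and lay between -0.13 and 0.14 with lines left out; Mmp12 was between -0.037 and 2.00. For BubR1 alone, leaving out 1 line in turn gave -0.78 to 2.50 for Mmp12, -0.72 to 2.92 for Mmp9, -0.16 to 0.81 for Mmp2, -0.31 to 0.0025 for Timp1, -0.26 to 0.27 for Timp2 and -0.31 to 0.11 for Timp3. For the difference between effects it gave -1.66 to 1.62 for Mmp12, -1.39 to 2.24 for Mmp9, -0.36 to 0.61 for Mmp2, -0.19 to 0.12 for Timp1, -0.16 to 0.37 for Timp2 and -0.16 to 0.26 for Timp3; with the mean of probe sets Timp2 was at -0.13. Which feature of the left-out lines caused these changes was not tested. Leaving out BubR1 lines in the model with 4 groups, and testing each probe set on its own, were chosen after seeing the data. The number of arrays limits every value.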
